A study of Bos taurus with 10 samples.

Results

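HSP90AA1, HSPA1A and HSPB1 are stress-inducible members of the HSP90, HSP70 and small heat shock protein families. Their messenger RNA was followed in skin biopsies of Brangus cattle, a breed derived from Brahman and Angus. The 3 genes were chosen by identifier (ENSBTAG00000006270, ENSBTAG00000025441 and ENSBTAG00000011969, in the order named), with no threshold on their values. All 3 identifiers were among the 7052 rows of the count table. The pairing of identifier and symbol was taken as given, because the gene table at hand links no Ensembl identifier to a symbol.

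The study compared heat-stressed with control cattle, in 5 libraries titled Ctrl and 5 titled Strs. The disease state entries reverse the titles: they list the Ctrl-titled libraries as heat-stressed cases and the Strs-titled libraries as controls. Which set met the heat is therefore not settled, and each direction below follows the title, as Strs-titled over Ctrl-titled. The labels give the same breed and tissue for both sets and no age, sex, temperature or length of exposure. They do not state that each library came from a different animal, so p-values measure the spread between these libraries, which may be technical.

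Heat shock proteins are chaperones: they hold unfolded or newly made proteins and help them to fold. HSPA1A uses ATP to bind and release exposed hydrophobic stretches, HSP90AA1 acts later on partly folded clients such as kinases and steroid receptors, and HSPB1 forms oligomers that hold unfolding proteins without ATP. All are targets of the transcription factor HSF1, and HSPA1A is the textbook example of a gene that is low at rest and strongly induced by heat. In skin, HSPB1 is also known as a protein of differentiating keratinocytes.

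Counts summed over the table were 490752 to 659756 per library under the Ctrl title and 2453542 to 8051190 under the Strs title. Levels are given in CPM, which is a gene's count divided by that sum and multiplied by 1000000, so 1 read was worth 1.52 to 2.04 CPM in Ctrl-titled libraries and 0.124 to 0.408 CPM in the Strs-titled set. The lowest count of any of the 3 genes in any library was 130, so none was near the limit of detection. Title group and table total do not overlap, and an effect of heat cannot be told apart from one of library preparation or read processing. The labels name no batch within a group. In bulk tissue, fewer cells of a type and less RNA per cell cannot be told apart either.

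None of the 3 heat shock genes passed the test between the title groups, in a table where most genes did. The quasi-likelihood test of edgeR called 4775 of 7047 genes at a Benjamini-Hochberg adjusted p under 0.05, 67.8% of those tested, against 0 of the 3. At an unadjusted p under 0.05, which all of those 4775 genes also met, the count was again 0 of 3. With DESeq2 at the adjusted threshold it was 1 of 3 (HSPA1A), beside 4916 of 7041 tested genes. With limma voom it was 0 of 3, beside 4262 of 7047. The groups overlapped in log2 CPM for each of the 3 genes, whereas 53.3% of tested genes had groups that did not overlap in log2 CPM. The 3 genes instead differed widely between libraries of the same title.

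HSPA1A, the stress-inducible HSP70, had the widest range of the 3 genes in the Ctrl-titled set. In Ctrl-titled replicates 1 to 5 it stood at 265, 5443, 2368, 452 and 662 CPM. Replicates 2 and 3 were far above the others, and the highest library was 20.5 times the lowest. Strs-titled replicates 1 to 5 had 527, 407, 300.2, 377 and 1235 CPM, within a 4.11-fold range. There 4 libraries lay close together and replicate 5 was apart, above 3 of the 5 Ctrl-titled libraries. Counting error was small beside these gaps: the lowest value, 265 CPM, rested on 130 counts with an exact 95% interval of 221 to 314 CPM.

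The group means of HSPA1A were 1838 CPM ± 2183 (SD, n = 5) under the Ctrl title and 569 CPM ± 381 (SD, n = 5) under the Strs title, with medians of 662 and 407 CPM. The fitted log2 fold change was -1.84 (SE 0.83, 95% interval -3.71 to 0.02; edgeR adjusted p = 0.0743). The interval reaches from a 0.0762-fold level to 1.02-fold. The size of the difference hung on single libraries: without Ctrl-titled replicate 2 it was -0.88 (edgeR adjusted p = 0.268). Without Ctrl-titled replicate 1, Ctrl-titled replicate 4 or Strs-titled replicate 5 it passed the threshold, at -2.12, -2.08 and -2.32 with edgeR adjusted p = 0.0312, 0.0481 and 0.0384.

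The counts of HSPA1A carry an uncertainty of assignment. In the RefSeq gene table of assembly ARS-UCD2.0, HSPA1B is listed as another name of HSPA1A, and HSPA1L is the next gene on the chromosome. In many mammals HSPA1A and HSPA1B are near-identical copies, so how reads were shared among copies could affect the value. The libraries do not keep the strand, so reads of overlapping genes on opposite strands could not be told apart by strand. The table lists no gene that overlaps any of the 3.

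HSP90AA1, the inducible cytosolic HSP90, differed less in the Ctrl-titled set, with a 6.02-fold range. In the Strs-titled set HSPA1A had a 4.11-fold range and HSP90AA1 a wider one, 4.36-fold. Ctrl-titled replicates 1 to 5 had 357, 2102, 1341, 349.5 and 753 CPM, with replicates 2 and 3 again the highest and replicates 1 and 4 the lowest. Strs-titled replicates 1 to 5 had 2815, 645, 1054, 1544 and 959 CPM. Strs-titled replicate 1 was the highest of the 10 libraries, and the other 4 lay inside the Ctrl-titled range. Means were 981 CPM ± 746 (SD, n = 5) and 1403 CPM ± 852 (SD, n = 5). The log2 fold change was 0.37 (SE 0.55, 95% interval -0.84 to 1.58; edgeR adjusted p = 0.567), an interval from 0.559-fold to 2.99-fold. It was -0.01 without Strs-titled replicate 1 and 0.86 without Ctrl-titled replicate 2, and did not pass in either case.

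HSPB1, the small heat shock protein, showed the same order in the Ctrl-titled set. Replicates 1 to 5 there had 436, 3640, 2811, 389 and 1229 CPM. In Strs-titled replicates 1 to 5 it stood at 4319, 1322, 1457, 4441 and 1913 CPM. Strs-titled replicates 1 and 4 exceeded every Ctrl-titled library, and the other 3 fell between the Ctrl-titled extremes. Means were 1701 CPM ± 1461 (SD, n = 5) and 2690 CPM ± 1558 (SD, n = 5). The log2 fold change was 0.52 (SE 0.66, 95% interval -0.94 to 1.98; edgeR adjusted p = 0.506), or 0.52-fold to 3.94-fold. It ranged from 0.26 without Strs-titled replicate 4 to 1.00 without Ctrl-titled replicate 2, past the threshold in neither.

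**Figure D1:**
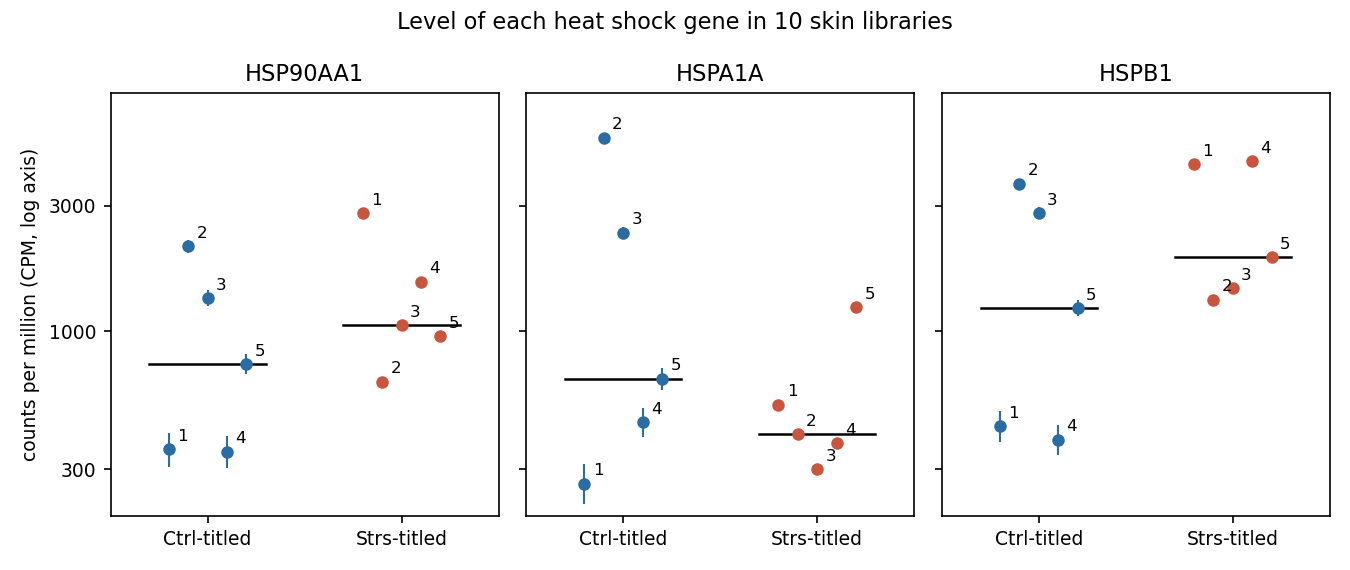
Level of HSP90AA1, HSPA1A and HSPB1 in each library, in CPM on a log axis. Points are single libraries labelled with their replicate number, vertical bars are exact 95% counting intervals (mostly smaller than the point) and horizontal lines are group medians. The groups overlap for each gene, and Ctrl-titled replicates 2 and 3 are the top libraries of their set in all 3 panels.

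Per tested gene, the median log2 fold change was 0.11 and the median absolute log2 fold change 1.08. By its absolute size, the estimate for HSPA1A exceeded that of 73.0% of tested genes, HSPB1 that of 25.3% and HSP90AA1 that of 18.1%. The standard errors were among the largest in the table. They were larger than those of 99.2% of tested genes for HSPA1A, 97.9% for HSPB1 and 95.6% for HSP90AA1, and the median standard error was 0.29.

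The spread between libraries of 1 title was measured as the SD of log2 CPM, beside the same value in other genes. In Ctrl-titled libraries it was 1.82 for HSPA1A, 1.51 for HSPB1 and 1.17 for HSP90AA1 (n = 5). Beside them stand 885 genes that averaged 100 counts or more in that set, a minimum that limits the part of counting noise. Their median SD was 0.30. Of those 885 genes, 7 had a larger SD than HSPA1A, 10 a larger one than HSPB1 and 19 a larger one than HSP90AA1. In Strs-titled libraries the SDs were 0.77, 0.83 and 0.78 in the same order, above those of 93.1%, 94.7% and 93.3% of 6400 genes, whose median was 0.33. All 3 SDs were larger in the Ctrl-titled set, a difference that was not tested. The same 100 counts stand for a higher CPM in the Ctrl-titled set, so the 885 and 6400 genes are unlike backgrounds. Among all 7047 tested genes, 98.2%, 97.1% and 94.8% had a smaller SD in the Ctrl-titled set, again in that order. In the Strs-titled set the shares were 88.8%, 90.8% and 89.1%.

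**Figure D2:**
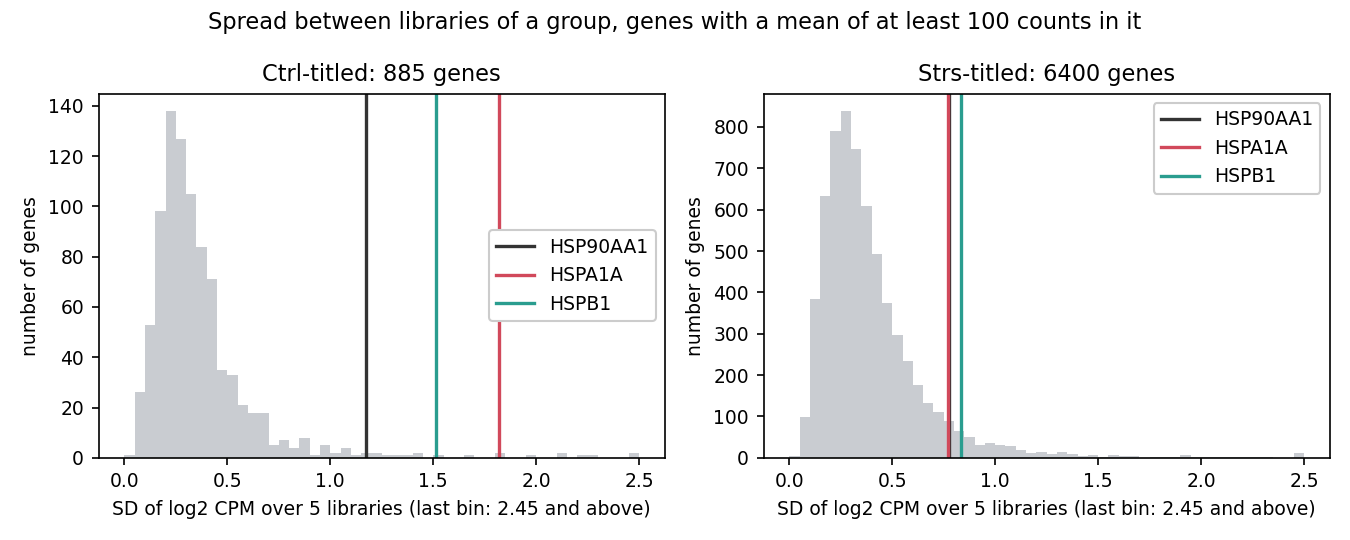
Number of genes (vertical axis) by SD of log2 CPM over the 5 libraries of a title group (horizontal axis), for the 885 Ctrl-titled and 6400 Strs-titled genes that averaged 100 counts or more in that group. Coloured lines mark HSP90AA1, HSPA1A and HSPB1, which stand at 1.17, 1.82 and 1.51 on the left, far into the tail, and at 0.78, 0.77 and 0.83 on the right. The panels hold unlike sets of genes, because 100 counts is a higher CPM in Ctrl-titled libraries.

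The order of libraries by table total did not follow the levels in the Ctrl-titled set. Replicates 2 and 3, the highest for all 3 genes, had 548407 and 547400 counts, between replicate 1 with 490752 and replicate 4 with 583686, the lowest libraries for 1 or more of the genes. The share of counts in the 10 most abundant genes was 26.6% and 31.4% in replicates 2 and 3 and 24.4% and 26.7% in replicates 1 and 4. Together the 3 heat shock genes took 0.106%, 1.12%, 0.652%, 0.119% and 0.265% of the counts of Ctrl-titled replicates 1 to 5. In Strs-titled replicates 1 to 5 they took 0.766%, 0.238%, 0.281%, 0.636% and 0.411%. The highest and lowest libraries of the 10 were thus both Ctrl-titled.

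Genes were next compared by their profile over the libraries. Each gene's log2 CPM was centred on its own mean over the 10 libraries, and the likeness of a pair of genes was the root mean square of their differences over those libraries (smaller is more alike). HSP90AA1 and HSPB1 were each other's nearest gene. Of 7046 other genes, HSPB1 ranked 1 from HSP90AA1 and HSP90AA1 ranked 1 from HSPB1, at a distance of 0.39 log2 units. The median gene was 1.18 from HSP90AA1 and 1.37 from HSPB1. With 1 library left out at a time, HSP90AA1 kept rank 1 from HSPB1 in every case, and HSPB1 ranked 1 to 5 from HSP90AA1, the lowest rank without Strs-titled replicate 1. These ranks describe the 10 libraries, whose table totals do not overlap between the titles, and carry no test.

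HSPA1A was further from both over the 10 libraries. It was 1.21 log2 units from HSP90AA1 and 1.31 from HSPB1. Among the genes closest to HSPA1A those genes ranked 441 and 1105, and HSPA1A in turn ranked 3782 from HSP90AA1 and 2960 from HSPB1. For distances within a title group, each gene was centred anew on its mean over the 5 libraries of that group. Within the 5 Ctrl-titled libraries HSPB1 ranked 5 and HSP90AA1 ranked 7 among the genes closest to HSPA1A, at 0.55 and 0.66 log2 units, against a median of 1.68. Within the 5 Strs-titled libraries they ranked 6231 and 6218, at 1.02 each, against a median of 0.76. In the Ctrl-titled set HSP90AA1 ranked 2 from HSPB1 and HSPB1 ranked 9 from HSP90AA1. The same ranks were 15 and 55 within Strs-titled libraries, and 111 and 1505 there without replicate 1. Whether HSPA1A sat nearer to the other genes in one title group than in the other was not tested. The SD of its log2 CPM was 1.82 in the Ctrl-titled set and 0.77 in the Strs-titled set, near those median distances. With an unscaled distance, its ranks are therefore not directly comparable between the title groups.

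The Strs-titled distance depended partly on replicate 5. That library had the highest HSPA1A of its set but lay below replicates 1 and 4 for HSPB1 and below replicates 1, 3 and 4 for HSP90AA1. Without it HSPA1A was 0.65 from HSP90AA1 and 0.71 from HSPB1, and HSPB1 still ranked 6213 from HSPA1A. Seen from HSP90AA1, however, the rank of HSPA1A moved from 6079 to 1515, and seen from HSPB1 it moved from 5855 to 1339. In the Ctrl-titled set, where replicate 2 was followed by replicate 3 and then replicate 5 for each of the 3 genes, no left-out library placed HSPB1 beyond rank 10 or HSP90AA1 beyond rank 17 from HSPA1A. Seen from the other side, HSPA1A moved from rank 133 to 753 from HSP90AA1 and from rank 12 to 85 from HSPB1 without Ctrl-titled replicate 4.

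**Figure D3:**
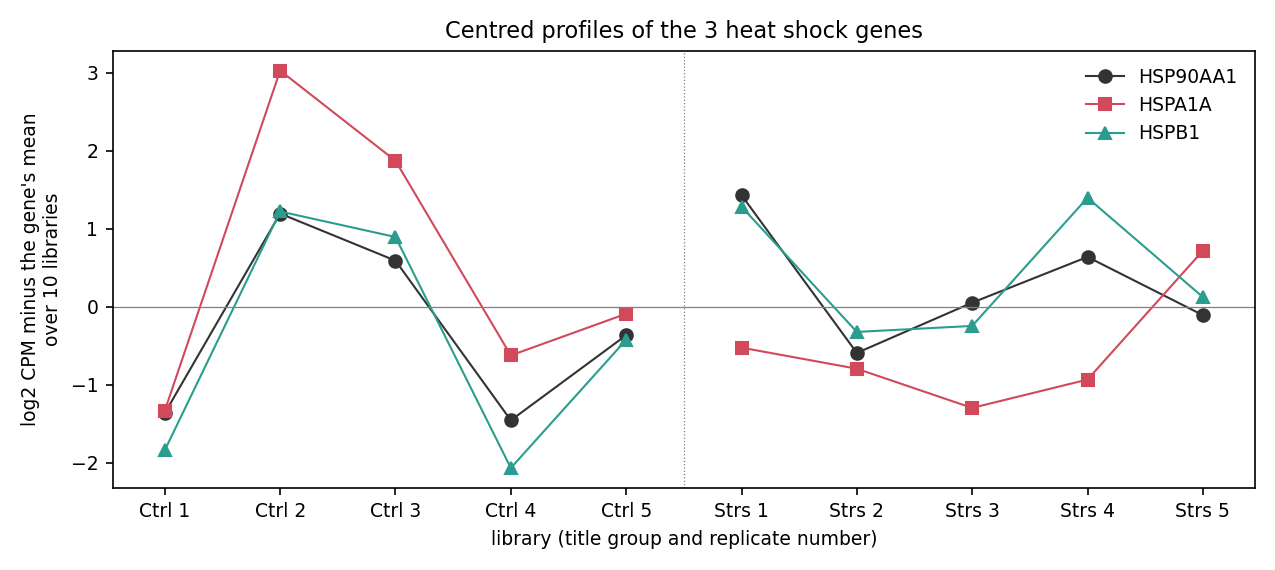
Log2 CPM of each gene minus its own mean over the 10 libraries (vertical axis), by library (horizontal axis, Ctrl-titled left and Strs-titled right of the dotted line; lines join libraries as a guide to the eye and imply no order). HSP90AA1 and HSPB1 have a root mean square distance of 0.39 over the 10 libraries. They are furthest apart in Strs-titled replicate 4, at 0.64 and 1.40. HSPA1A rises and falls with them on the left and runs below them in Strs-titled replicates 1 to 4.

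Outside the 3 genes, the closest profile to HSP90AA1 was that of ENSBTAG00000015663, at 0.43 log2 units. The closest to HSPB1 was ENSBTAG00000007605, at 0.49, and the closest to HSPA1A was ENSBTAG00000005012, at 0.66. In the order HSP90AA1, HSPB1 and HSPA1A, these closest genes fell to 32, 49 and 8 counts in a Ctrl-titled library. The lowest count of the 3 heat shock genes was 130, so the profiles of the closest genes carry more counting error there. In the group test ENSBTAG00000015663 had a log2 fold change of 0.30 (edgeR adjusted p = 0.473) and ENSBTAG00000005012 one of -0.99 (edgeR adjusted p = 0.266), so neither was called. ENSBTAG00000007605 passed, at 1.32 (edgeR adjusted p = 0.0238). The closest gene to HSPA1A was further from it than the closest gene was from either of the others. No symbol was paired with these identifiers here.

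Ratios of counts inside a library do not depend on its total or scaling, and they tested whether 2 of the genes moved by different amounts. On average HSPA1A was lower relative to both other genes in Strs-titled libraries. Ratios of other gene pairs were not tested, so how common such a shift is among them is not known. Differences between the titles were widespread: 67.8% of tested genes were called, and the median absolute log2 fold change was 1.08. The ratios below therefore do not show that HSPA1A stands out from other genes. The ratio of HSPA1A to HSPB1 counts was 0.608, 1.5, 0.842, 1.16 and 0.539 in Ctrl-titled replicates 1 to 5. It was 0.122, 0.308, 0.206, 0.0849 and 0.646 in Strs-titled replicates 1 to 5. Thus 4 of 5 Strs-titled libraries lay below every Ctrl-titled one, and replicate 5 was the exception. The mean log2 ratio was -0.21 ± 0.62 (SD, n = 5) and -2.24 ± 1.15 (SD, n = 5), a difference of -2.03 (95% interval -3.31 to -0.66). The two-sided exact permutation p was 0.0238, or 0.0476 after Benjamini-Hochberg adjustment over the 3 pairs of genes.

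The ratio of HSPA1A to HSP90AA1 behaved alike. It was 0.744, 2.59, 1.77, 1.29 and 0.879 in Ctrl-titled replicates 1 to 5 and 0.187, 0.631, 0.285, 0.244 and 1.29 in Strs-titled replicates 1 to 5. Again 4 of 5 Strs-titled libraries were below the Ctrl-titled range, with replicate 5 inside it. The mean log2 ratio went from 0.39 ± 0.73 (SD, n = 5) to -1.31 ± 1.14 (SD, n = 5), a difference of -1.70 (95% interval -3.18 to -0.24; two-sided exact permutation p = 0.0317, adjusted 0.0476). This ratio and the one to HSPB1 share the HSPA1A counts and are not separate evidence. Their calls were close to the threshold: without any 1 of Ctrl-titled replicates 2, 3 and 4 or Strs-titled replicates 1, 2, 3 and 4, the adjusted exact permutation p of both was 0.0714 to 0.0952. With a library left out only 126 divisions exist, against 252, so the exact p is coarser and can rise with the difference unchanged. Without Ctrl-titled replicate 4 the HSPA1A to HSP90AA1 difference was -1.71, with an adjusted exact permutation p of 0.0952. Without Strs-titled replicate 5 the differences were -2.12 and -2.43 for HSP90AA1 and HSPB1, with an adjusted exact permutation p of 0.0238 for each.

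No such difference passed for the remaining pair. HSPB1 to HSP90AA1 was 1.22, 1.73, 2.10, 1.11 and 1.63 in Ctrl-titled replicates 1 to 5 and 1.53, 2.05, 1.38, 2.88 and 2.00 in Strs-titled replicates 1 to 5. The values of the title groups overlapped from 1.38 to 2.10, and Strs-titled replicate 4 was the highest. The difference of the mean log2 ratios was 0.33 (95% interval -0.23 to 0.85; two-sided exact permutation p = 0.222, adjusted 0.222), so a relative shift of up to 0.85 log2 units remains possible. The ratio varied little within a title, with an SD of 0.37 and 0.41 (n = 5 each), below the SDs of 0.62 to 1.15 of the ratios with HSPA1A. Ratios of raw counts also reflect transcript length, so they were compared between libraries and not read as the relative abundance of the genes.

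**Figure D4:**
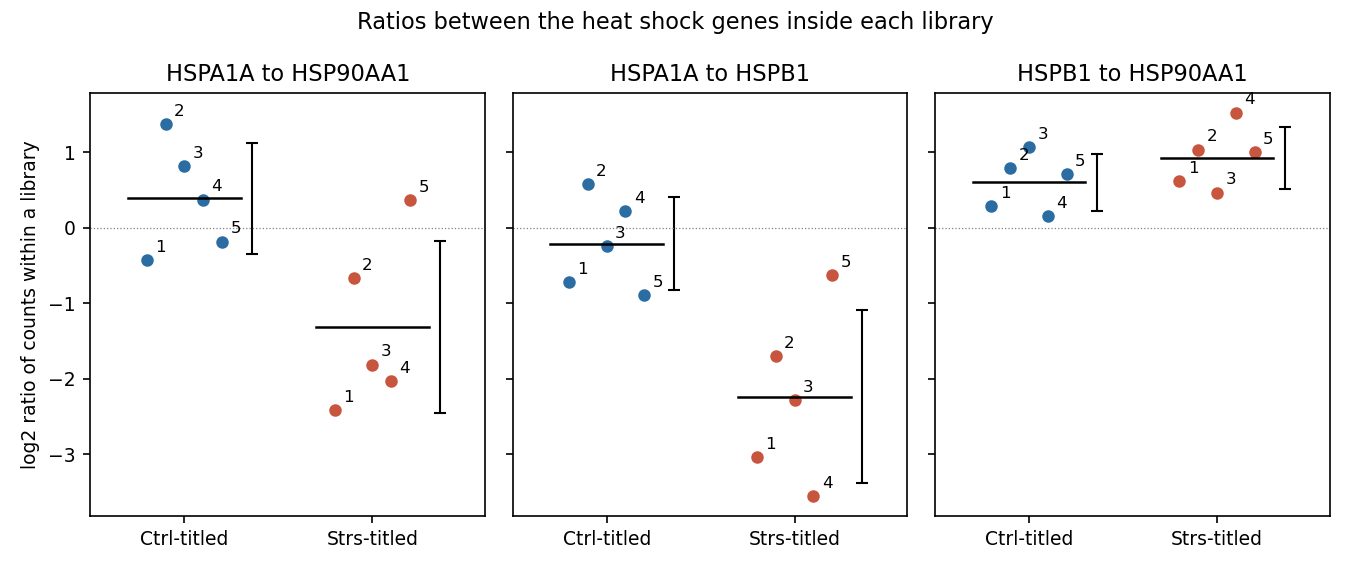
Log2 ratio of the counts of 2 genes inside each library (vertical axis) for each pair, by title group. Points are libraries labelled with their replicate number, horizontal lines are group means and the bars beside them 1 SD. In both panels with HSPA1A, 4 of 5 Strs-titled libraries lie below the Ctrl-titled range and replicate 5 does not; the HSPB1 to HSP90AA1 ratios overlap.

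Strs-titled replicate 5 stood apart in other measures as well. It had the lowest table total of its set, 2453542 counts. ENSBTAG00000051730, the most abundant gene of the Ctrl-titled libraries at 45640 to 186500 CPM, stood at 2529 CPM in it, against 63.2 to 78.0 CPM in the other 4 Strs-titled libraries. The part of this in the HSPA1A level of that library was not tested.

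**Figure D5:**
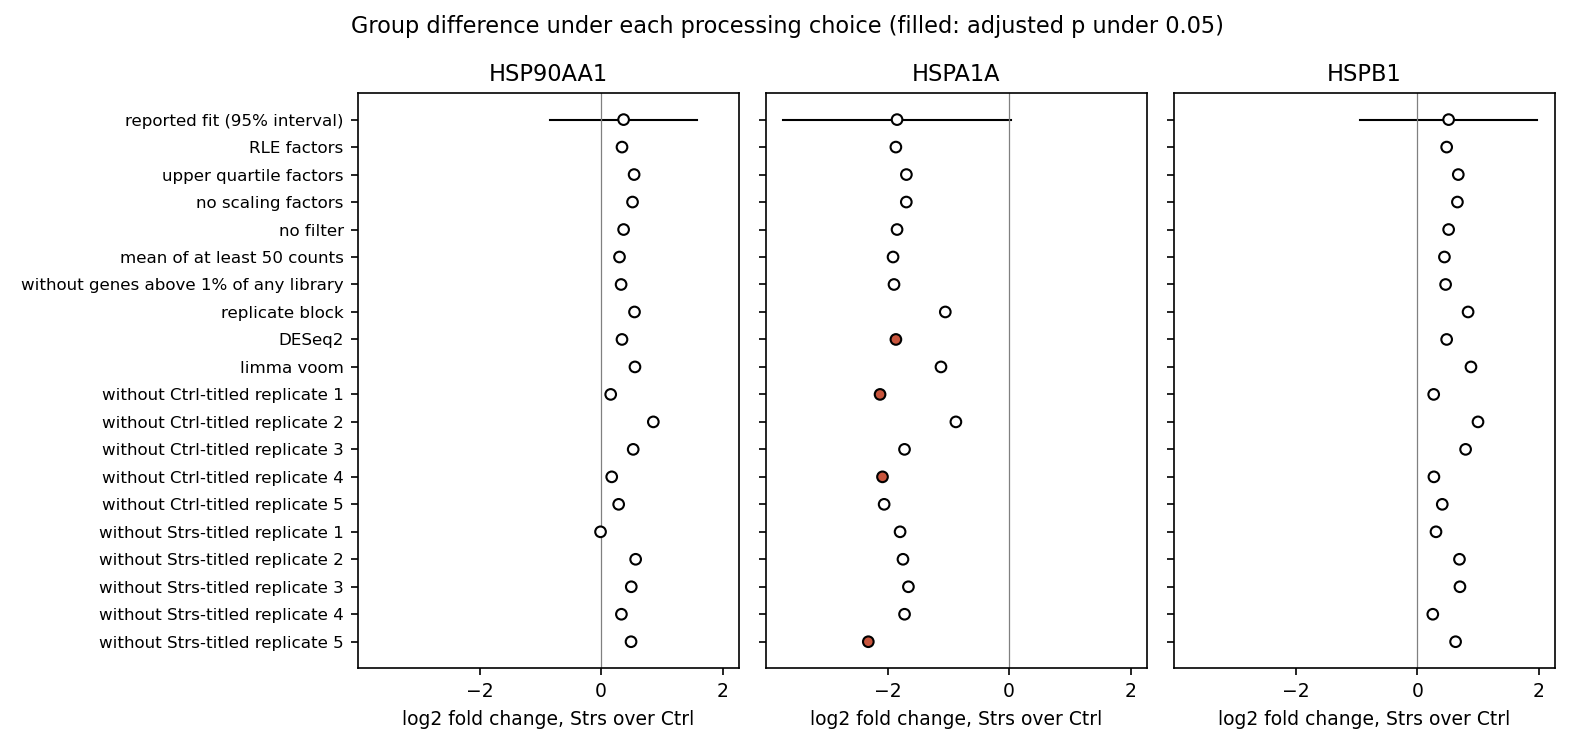
Log2 fold change, Strs-titled over Ctrl-titled (horizontal axis), of each gene in the reported fit, with its 95% interval, and under each alternative fit (vertical axis). Filled points have an adjusted p under 0.05: none for HSP90AA1 or HSPB1, and for HSPA1A those from DESeq2 and from leaving out Ctrl-titled replicate 1, Ctrl-titled replicate 4 or Strs-titled replicate 5.

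None of the 3 other scalings tried turned the direction of an estimate. With upper quartile factors the median over tested genes shifted from 0.11 to 0.27 log2 units, and the 3 estimates were 0.54, 0.68 and -1.69, in the order HSP90AA1, HSPB1 and HSPA1A. With table totals alone they were 0.52, 0.66 and -1.69. Other heat shock and co-chaperone genes, and markers by which the labelled tissue could be checked, were not analysed here, because no symbol was paired with their rows.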

How the data were processed

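The deposited table holds raw read counts per Ensembl gene for 10 skin libraries, prepared without strand and sequenced as paired ends per the labels' protocols. The build was ARS-UCD1.2 and the tools were STAR, featureCounts, fastp 0.12.5, FastQC and DESeq2 1.26.0, per the submitters' processing notes. The deposited table's name says, in Spanish, that zeros and RP were removed, without spelling out RP. Counting settings and any further selection of genes are not given in the sources. Absent genes enter neither totals nor CPM.

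Groups followed the titles. The fit used edgeR 4.0.16 in R 4.3.3 on all 10 libraries, with filterByExpr (7047 of 7052 genes kept), TMM factors, robust quasi-likelihood F tests and Benjamini-Hochberg adjustment over all tested genes. Standard errors are the log2 fold change over the root of F. Log2 CPM for spread and profiles used a prior count of 2. Ratios had 0.5 added to each count and were tested by two-sided exact permutation over 252 divisions (smallest p 0.00794; SciPy 1.17.1), and their intervals invert that test. Counting intervals are exact Clopper-Pearson and cover counting error only. The fit was tested on simulated data. No 2 libraries of a title were copies (chi-square per degree of freedom at least 4.0 over 20 pairs).

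Named genes were the 3 members and, for each, the gene of nearest profile. The members and lists were chosen with earlier results of these data known. Alternatives were other scaling, filters, DESeq2 1.42.0, limma 3.58.1 voom, a replicate block, other pseudocounts and each library left out. The planned list of further heat shock genes, the cell type markers and the promoter motif search were not analysed here, since the gene table paired 0 identifiers with symbols and no sequences were used.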

Additional observations from a re-analysis of the deposited data

Results flagged for a closer look

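A single library lay far from the other 4 of its title group in 1 of the 12 groups of values checked (levels of 3 genes and 3 ratios in each title group). Chance alone gives such a gap in about 1 in 20 groups. HSPA1A stood at 1235 CPM in Strs-titled replicate 5, against 300.2 to 527 CPM in the other Strs-titled libraries.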

How the results depend on the processing

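No call on HSP90AA1 or HSPB1 changed under any of the 9 alternative fits or 10 fits with a library left out. Their log2 fold changes were 0.30 to 0.56 and 0.45 to 0.88 under the former, and -0.0089 to 0.86 and 0.26 to 1.00 under the latter, so HSP90AA1 changed sign without Strs-titled replicate 1. HSPA1A was lower in Strs-titled libraries in every fit, at -1.91 to -1.05, and -2.32 to -0.88 with a library left out. It passed with DESeq2 (-1.86, adjusted p = 0.0340). Limma voom, which averages log values, gave -1.12 (adjusted p = 0.266). Over all 19 alternatives its adjusted p was 0.0312 to 0.31. Called genes numbered 4262 to 4916, and 4510 to 4708 with a library left out. Log2 ratio differences with a library left out were -2.12 to -1.43 for HSPA1A to HSP90AA1, -2.43 to -1.70 for HSPA1A to HSPB1 and 0.18 to 0.44 for HSPB1 to HSP90AA1. Other pseudocounts changed no ratio call. The titles share replicate numbers, but deviations from the group means correlated at -0.081 to 0.026 between libraries of the same number, which gives no sign of a pairing. With the replicate block 4568 genes were called, and HSP90AA1, HSPA1A and HSPB1 stood at 0.55, -1.05 and 0.84 (edgeR adjusted p = 0.514, 0.31 and 0.447). The paired exact test of the ratios, which with 5 pairs cannot go below p = 0.0625, left the differences at -1.70 and -2.03 (exact p = 0.125 each, adjusted 0.188). The left-out ranks were chosen after the data were seen. A single read was worth up to 2.04 CPM in Ctrl-titled libraries.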
